A study of Mus musculus with 6 samples.

Results

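The genes described here encode nucleolar machinery of ribosome production, subunits of RNA polymerases I and III, and the RNA exosome. They were chosen by name, as every symbol starting with Nop, Nol, Utp, Rrp, Polr1, Polr3 or Exosc except those marked as pseudogenes, which gave 56 of 19436 genes in 7 name families. The families held 6 Nop, 9 Nol, 9 Utp, 8 Rrp, 5 Polr1, 10 Polr3 and 9 Exosc genes. Levels were compared between 3 libraries labelled -77-/- and 3 wild type libraries, all from C57BL/6 mouse fetal livers at E14.5. The cells were sorted as erythroid precursors, with medium levels of the transferrin receptor CD71 and without Ter119, which marks red cells later in maturation. The label -77 refers to a distal enhancer of Gata2, a gene for a key regulator of blood progenitors, and -77-/- embryos carry it on neither allele. The question is how gene activity in these precursors changes with loss of that enhancer. The labels do not say that the libraries are from different embryos, and p-values therefore reflect only how far these samples scatter, part of which may be technical. Wild type replicate 2 alone held high Xist, so it was not a repeat of the same RNA as the other wild type libraries.

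Ribosome production starts in the nucleolus, where RNA polymerase I transcribes the long precursor of the large ribosomal RNAs. RNA polymerase III makes the small 5S ribosomal RNA and transfer RNAs outside it. Small nucleolar RNAs with their bound proteins guide modification of the precursor, the small subunit processome folds and cuts it, and the exosome trims or destroys RNA from its end. Early erythroid cells are known for high ribosome production, and inherited defects of ribosome assembly cause anaemias in people.

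The 6 libraries held between 16516338 and 20468899 recovered reads, and between 14847 and 18133 genes had at least 1 read in a library. Values are normalized reads, the authors' counts divided by a size factor per library. All 56 members passed the filter on low values. Gata2 itself had 74.2, 26.2 and 34.2 normalized reads in -77-/- replicates 1 to 3, against 128, 87.8 and 61.5 in wild type, a difference that did not pass (log2 fold change -1.10, SE 0.60, limma adjusted p = 0.183). The gated cells carried erythroid markers in wild type, and several of the marker lists differed strongly between genotypes. Counts in this and later lists stand beside 15.2% lower and 16.9% higher over all genes tested, at an adjusted p under 0.05. All 10 erythroid markers were lower in -77-/-, where their summed value ran from 2944 to 6618, against 31651 to 34785 in wild type, and none was without reads in any library. All 10 monocyte and macrophage markers were higher, with sums of 29655 to 39639 in -77-/- and 1459 to 2726 in wild type, and only Fcgr1 was without reads, in wild type replicate 3. Of 10 granulocyte genes 4 were higher and 3 lower, with sums of 44667 to 48682 in -77-/- and 13934 to 23927 in wild type. Most of each sum was Mpo alone, at 38959 ± 1865 in -77-/- and 11805 ± 3123 in wild type. Prtn3, Ctsg and Csf3r also rose, while S100a8, S100a9 and Ngp fell. Of 8 B lineage genes 6 were higher (sums 1890 to 3529 in -77-/- and 587 to 913 in wild type). Of 7 tested stem and progenitor genes 5 were higher and 1 lower (sums 11978 to 12072 in -77-/- and 4891 to 5667 in wild type). Cd34 made up most of the -77-/- sum, at 6656 to 7447 against 271 to 309 in wild type. Kit, which fell, made up most of the wild type sum, at 4271 to 4907 against 1711 to 2097 in -77-/-. Of 5 tested megakaryocyte markers 1 was higher and 2 were lower, with Ppbp and Gp9 without reads in -77-/- replicates 2 and 3 and Gp1bb without reads in 5 libraries (sums 196 to 434 in -77-/- and 247 to 464 in wild type). None of 3 tested hepatocyte markers passed, but -77-/- replicate 3 stood apart with a sum of 884, against 84.4 and 119 in the other -77-/- libraries and 48.9 to 207 in wild type. Without that library 38 of the 56 members were lower, where 12.6% of all genes tested were lower, and the median of the members was -0.71. The part of these shifts in the results that follow was not tested.

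Most of the machinery was lower in -77-/- cells. Of the 56 members, 40 were lower (71.4%) at a Benjamini-Hochberg adjusted p under 0.05, against 15.2% of all 15821 genes tested. Only 1 member, Utp14b, was higher (1.79%), against 16.9% of all genes tested, and 15 did not pass. The median log2 fold change of the members was -0.67, beside 0.10 over all genes tested, and 53 of the 56 values were below 0. In 45 members every -77-/- library lay below every wild type library, against 21.4% of all genes tested, and in 2 every -77-/- library lay above, against 25%. With limma without its trend and robust steps 24 members were lower, where 9.04% of all genes tested were lower. The members whose calls ended there are named with their values. In these bulk samples, fewer cells of a type and less RNA per cell cannot be told apart. The authors' deposited table called the same numbers, 40 members lower and 1 higher, where it called 14.7% and 16.4% of all genes with an adjusted p.

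**Figure D1:**
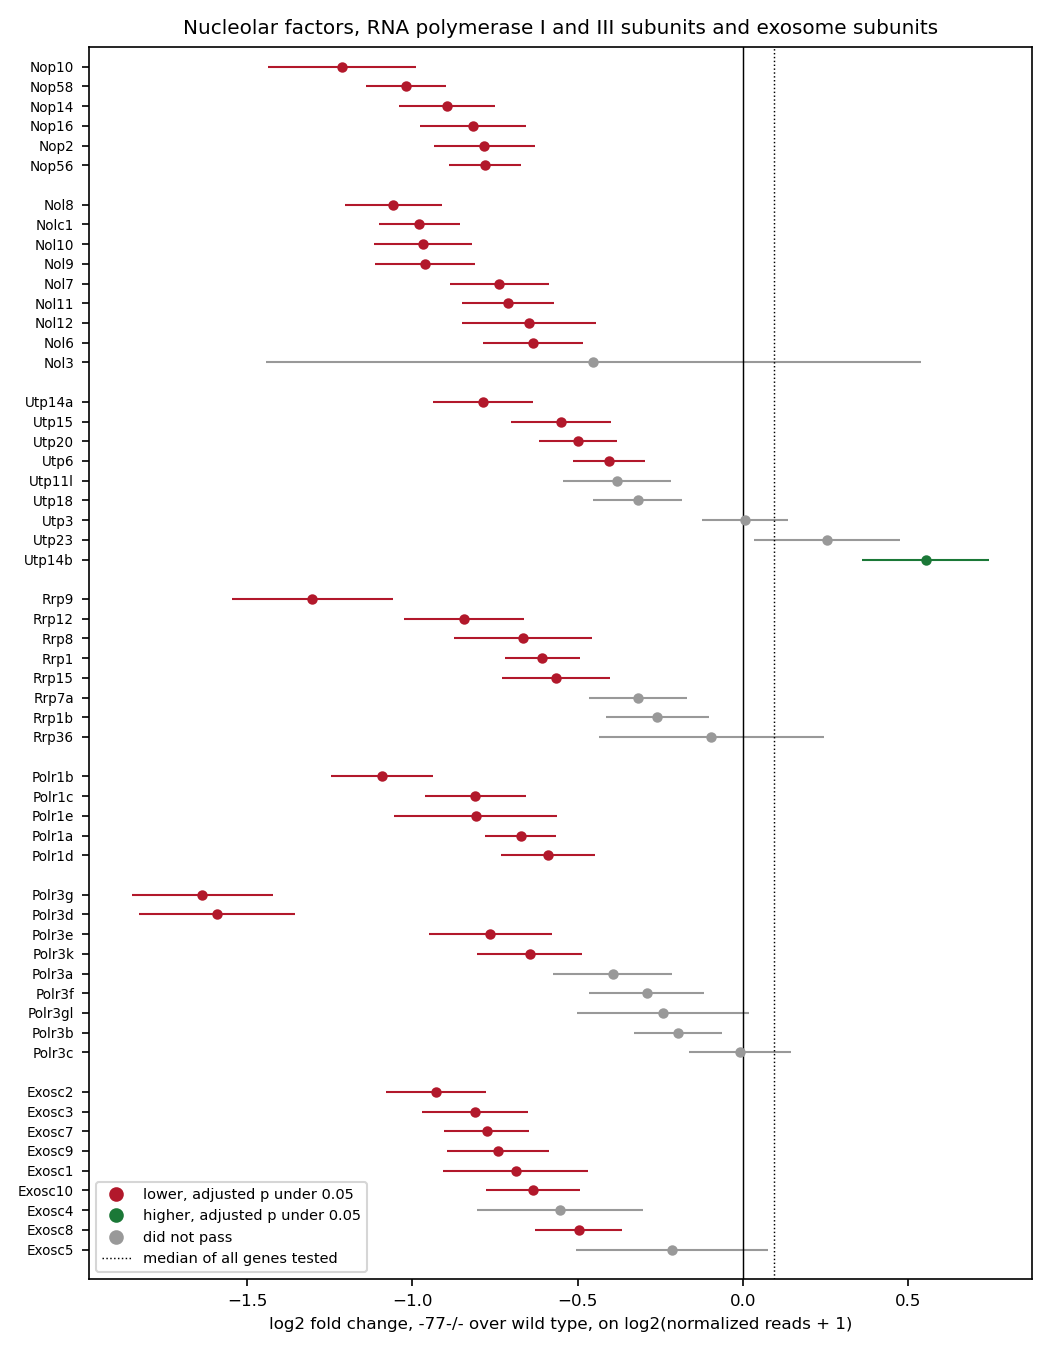
The log2 fold change (-77-/- over wild type, on log2 of normalized reads plus 1) of 55 of the 56 members, grouped by name family, with bars of 1 SE over 3 libraries each. Red points were lower and the green point higher at an adjusted p under 0.05; grey points did not pass, and the dotted line is the median of all genes tested, 0.10.

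The members together took 0.408%, 0.367% and 0.431% of all normalized reads in -77-/- replicates 1 to 3, against 0.582%, 0.620% and 0.626% in wild type. The means were 0.402% ± 0.0323 in -77-/- and 0.610% ± 0.0240 in wild type (SD, n = 3 each here and throughout), without overlap. Replicate 2 was the lowest of the -77-/- libraries for 37 of the 56 members, and replicate 3 the highest for 32. Without -77-/- replicate 2 the median of the members was -0.60 and 34 were lower, where 12.2% of all genes tested were lower. By summed value, the Nol and Nop families stood at 54.4% and 54.6% of their wild type sum, Exosc at 61.6%, Polr3 at 66.6%, Rrp at 68.0% and Utp at 77.4%. The Polr1 sum was 7089 ± 558 in -77-/- and 11815 ± 1014 in wild type.

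The Nop genes include core proteins of small nucleolar ribonucleoproteins (snoRNPs). All 6 Nop genes fell, with a family median log2 fold change of -0.85. Nop58, a core protein of box C/D particles, which guide ribose methylation, had 4875, 3757 and 5104 normalized reads in -77-/- replicates 1 to 3, against 9862, 8518 and 9256 in wild type. The means were 4579 ± 721 in -77-/- and 9212 ± 673 in wild type, so the -77-/- level was 49.7% of wild type (log2 fold change -1.02, SE 0.12, limma adjusted p = 1.1e-05). Nop56, the partner of Nop58 in that particle, had 6155, 4908 and 6056 in -77-/- libraries, against 9217, 9759 and 10301 in wild type, a change of -0.78 on the log2 scale (SE 0.11, limma adjusted p = 5.1e-05). For both genes the groups were far apart, and -77-/- replicate 2 was the lowest library. Nop10, a core protein of box H/ACA particles, which guide pseudouridine formation, was tightly grouped at 226, 216 and 220 in -77-/- libraries, against 481, 545 and 513 in wild type (log2 fold change -1.21, SE 0.22, limma adjusted p = 6.6e-04). The other Nop genes that fell were Nop14, a small subunit factor, with a log2 fold change of -0.89, Nop16, a large subunit factor, with -0.81, and Nop2, a methyltransferase of ribosomal RNA, with -0.78. For Nop2 the call was lost with limma without trend and robust steps (adjusted p = 0.0551, the highest of the 16 alternatives, with a lowest of 7.2e-05).

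Of the other snoRNP proteins and their assembly factors, 8 of 12 tested were lower and none was higher, with a median of -0.69. Fbl, the methyltransferase that Nop56 and Nop58 bind, had a log2 fold change of -0.65. The H/ACA pseudouridine synthase Dkc1 and its partners Nhp2 and Gar1 had -0.71, -0.73 and -0.89. The largest fall was that of Naf1, an H/ACA assembly factor, to 688 ± 161 in -77-/-, against 1357 ± 203 in wild type (log2 fold change -0.99, SE 0.18, limma adjusted p = 7.0e-04).

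Of the 9 Nol genes 8 fell, with a family median of -0.74. Nol8, a nucleolar RNA-binding protein, had 940, 721 and 896 in -77-/- replicates 1 to 3, against 1689, 1767 and 1837 in wild type, and the groups did not overlap (log2 fold change -1.06, SE 0.15, limma adjusted p = 5.2e-05). Nolc1, a chaperone of small nucleolar particles, averaged 4553 ± 809 in -77-/- and 8879 ± 446 in wild type. Nol10, whose yeast counterpart is a small subunit factor, and Nol9, a kinase that acts on precursor RNA, fell by 0.97 and 0.96 on the log2 scale. Nol7, Nol11, Nol12 and Nol6 fell by 0.74, 0.71, 0.65 and 0.63. Nol6 and Nol12 lost their calls with limma without trend and robust steps (adjusted p = 0.0707 and 0.107, the highest of the alternatives, with lowest values of 0.0015 and 0.0059). Nol12 also lost its call without -77-/- replicate 2 or 3 or wild type replicate 2 or 3, where its log2 fold change was -0.68, -0.58, -0.56 and -0.53 (limma adjusted p = 0.0502, 0.0943, 0.0946 and 0.0733). Nol3, which despite its name is known as a cytoplasmic inhibitor of cell death, was the member that did not pass. It was scattered in both genotypes, at 9.15, 139 and 78.5 in -77-/- libraries and 23.5, 148 and 78.6 in wild type, with a difference of -0.45 on the log2 scale (SE 0.99, limma adjusted p = 0.763).

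**Figure D2:**
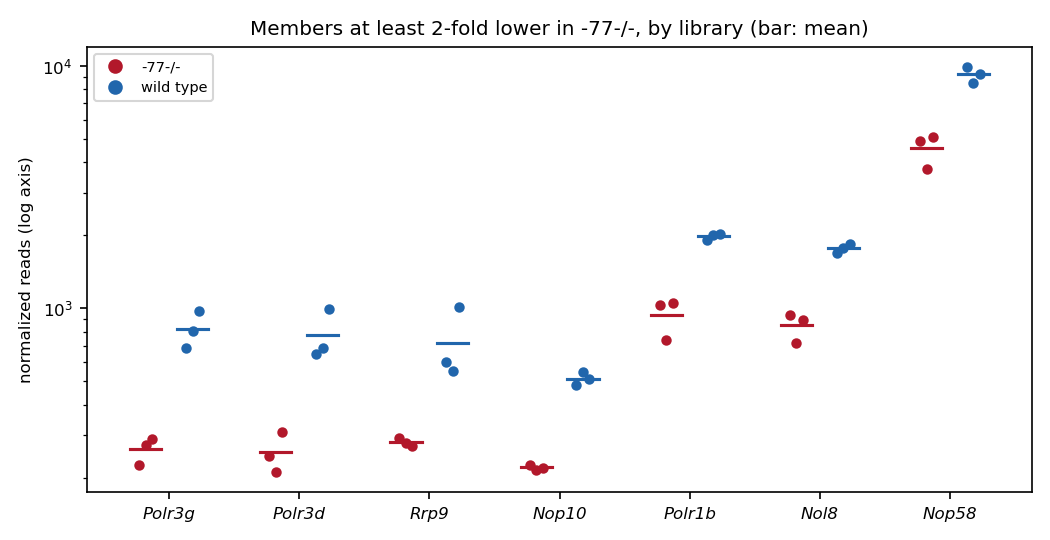
Normalized reads (log axis) of 7 of the 8 members that were at least 2-fold lower, with 1 point per library, -77-/- in red on the left and wild type in blue on the right, and the mean as a bar. For each gene every -77-/- library lies below every wild type library; for Polr3g the points run from 226 to 289 in -77-/- and from 687 to 972 in wild type.

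A fall of at least 2-fold was reached by 8 members, against 6.11% of all genes tested, among them Polr3g, Polr3d, Rrp9, Nop10, Polr1b, Nol8 and Nop58. Rrp9, the protein specific to the U3 particle that starts processing of the precursor, had 293, 279 and 270 in -77-/- libraries, against 599, 551 and 1009 in wild type. The -77-/- values were close together, while wild type replicate 3 stood high. The log2 fold change was -1.30 (SE 0.24, limma adjusted p = 7.4e-04), or -1.03 without that library.

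The remaining Rrp genes divided. Rrp12, an export factor of the small subunit precursor, Rrp8, a nucleolar methyltransferase, and Rrp1 and Rrp15, both large subunit factors, fell by 0.84, 0.67, 0.61 and 0.57 on the log2 scale. Calls ended with limma without trend and robust steps for Rrp12, Rrp8 and Rrp15 (adjusted p = 0.0647, 0.0653 and 0.142), and over the alternatives p ran from 4.8e-04 to 0.0647, from 0.0188 to 0.106 and from 0.0080 to 0.142. Rrp8 lost its call without -77-/- replicate 1 or 2 or wild type replicate 2 (log2 fold change -0.66, -0.54 and -0.59, limma adjusted p = 0.0535, 0.106 and 0.0844). Rrp15 lost it without -77-/- replicate 2, where its log2 fold change was -0.36, or wild type replicate 2 or 3, where it was -0.54 and -0.51 (limma adjusted p = 0.0645, 0.0529 and 0.0541). Rrp1b, a paralogue of Rrp1, had a log2 fold change of -0.26 and did not pass (limma adjusted p = 0.228). Rrp7a, a small subunit factor, had -0.32 and passed only without wild type replicate 1 (log2 fold change -0.45, limma adjusted p = 0.044, with up to 0.326 in other alternatives). Rrp36, a factor of early precursor cuts, had 147, 153 and 190 in -77-/- libraries and 159, 239 and 137 in wild type, which overlap (log2 fold change -0.09, SE 0.34, limma adjusted p = 0.855).

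The Utp genes, named for U3 particle proteins of the small subunit processome, were the least affected family by median (-0.38), with 4 of 9 lower, 1 higher and 4 that did not pass. Utp14a, an activator of a processome helicase, had 1725, 1204 and 1239 in -77-/- libraries, against 2434, 2527 and 2146 in wild type (log2 fold change -0.79, SE 0.15, limma adjusted p = 8.9e-04). The groups did not overlap. Utp14a lies on chromosome X, and wild type replicate 2 alone expressed Xist, at 41877 against 28.5 to 63.2 elsewhere. Without that library the log2 fold change was -0.74 (limma adjusted p = 0.0067). Utp15, Utp20 and Utp6, scaffold proteins of the processome, fell by 0.55, 0.50 and 0.40 in log2 units. The calls of Utp15, Utp20 and Utp6 ended with limma without trend and robust steps (adjusted p = 0.110, 0.0908 and 0.0932, the highest of the alternatives, with lowest values of 0.0031, 8.4e-04 and 0.0026), and that of Utp15 also without -77-/- replicate 2 (log2 fold change -0.41, limma adjusted p = 0.0574).

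Utp14b, an autosomal retrogene copy of Utp14a known for its need in sperm production, had the opposite direction. It had 635, 625 and 569 in -77-/- libraries, against 377, 458 and 414 in wild type, with every -77-/- library above every wild type library (log2 fold change 0.55, SE 0.19, limma adjusted p = 0.039). The call ended without any 1 of the -77-/- libraries or wild type replicate 1 (limma adjusted p = 0.0896, 0.117, 0.0814 and 0.102), with no filter (0.0552) and without trend and robust steps (0.0536); its lowest p over the alternatives was 0.0197. In the GRCm38 annotation Utp14b shares 244 exonic bases with Acsl3 on the same strand, and Acsl3 had a log2 fold change of -0.09 (limma adjusted p = 0.702). Reads from sequence that Utp14a and its copy Utp14b share could also be split by the counting, so both levels carry that uncertainty. The 4 Utp genes that did not pass were Utp11l, Utp18, Utp3 and Utp23, with log2 fold changes of -0.38, -0.32, 0.01 and 0.25. Utp3 showed full overlap, at 2270, 1791 and 2277 in -77-/- libraries and 2183, 2153 and 1938 in wild type (SE 0.13, limma adjusted p = 0.970). Utp11l passed without wild type replicate 3 (log2 fold change -0.52, limma adjusted p = 0.0162, with up to 0.274 in other alternatives), and all 3 -77-/- libraries of Utp23 lay above wild type without a call.

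Factors of the same steps under other names were counted next. Of 37 other small subunit factors 28 were lower and none higher, with a median of -0.78. Pwp2, a scaffold protein that works with Utp6 and Utp18, fell most, to 442 ± 54.8 in -77-/- against 1018 ± 198 in wild type (log2 fold change -1.19, SE 0.19, limma adjusted p = 2.3e-04). Of 44 genes listed as large subunit factors 35 were lower and none higher, with a median of -0.70. This list also held Tsr2, which is known as a small subunit factor and did not pass (log2 fold change -0.31, limma adjusted p = 0.301). The largest fall in the list was that of Gnl3, nucleostemin, a nucleolar GTPase of proliferating cells. Gnl3 fell to 1347 ± 233 in -77-/- against 3697 ± 115 in wild type (log2 fold change -1.47, SE 0.13, limma adjusted p = 8.0e-07). Ncl and Npm1, abundant nucleolar proteins, showed log2 fold changes of -0.94 and -0.76.

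All 5 RNA polymerase I subunits with Polr1 names were lower, with a family median of -0.81. Subunits under other names were counted with the partner genes below. Polr1a, which carries most of the active site, had 2395, 2549 and 2613 in -77-/- libraries, against 4042, 4173 and 3830 in wild type (log2 fold change -0.67, SE 0.11, limma adjusted p = 1.7e-04). Polr1b, the other catalytic subunit, had 1030, 737 and 1050 in -77-/- libraries, against 1918, 1997 and 2023 in wild type (log2 fold change -1.09, SE 0.15, limma adjusted p = 6.3e-05). Neither gene overlapped between genotypes, and Polr1b stood at 47.4% of its wild type mean. Polr1c and Polr1d are assembly subunits that RNA polymerase III also uses. Polr1c was nearly the same in the 3 -77-/- libraries, at 940, 942 and 940, against 1389, 1608 and 2008 in wild type (log2 fold change -0.81, SE 0.15, limma adjusted p = 8.2e-04). Polr1d had 2514, 1968 and 2467 in -77-/- libraries, against 3008, 3290 and 4204 in wild type (log2 fold change -0.59, SE 0.14, limma adjusted p = 0.0049). The groups were separate in both. With limma without trend and robust steps the call of Polr1d ended (adjusted p = 0.098, the highest of the alternatives, with a lowest of 0.0011). Polr1e, a subunit particular to polymerase I, had a log2 fold change of -0.81. Its call ended with limma without trend and robust steps (adjusted p = 0.112, with a lowest of 0.0135 over the alternatives), and without -77-/- replicate 2 or wild type replicate 3 (log2 fold change -0.59 and -0.62, limma adjusted p = 0.109 and 0.0768).

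Of 13 polymerase I partner genes, 7 were lower and 2 higher, with a median of -0.71. This list included the polymerase I subunits under other names, Twistnb, Cd3eap and Znrd1. Twistnb and Cd3eap fell by 0.73 and 0.77 on the log2 scale. Znrd1 overlapped between genotypes and did not pass (log2 fold change -0.17, SE 0.30, limma adjusted p = 0.703). The polymerase I initiation factor Rrn3, the rDNA architectural factor Ubtf and the selectivity factor subunits Taf1c and Taf1d showed log2 fold changes of -0.78, -0.71, -1.16 and -0.75. Another selectivity factor subunit, Taf1b, went the other way, with every -77-/- library above every wild type library. It did not pass (log2 fold change 0.47, SE 0.21, limma adjusted p = 0.102). Ubtf had 5243, 3689 and 4768 in -77-/- libraries, against 7046, 7357 and 7772 in wild type (SE 0.12, limma adjusted p = 4.1e-04), without overlap. The genes that rose were Baz2a, a subunit of a complex that silences ribosomal RNA genes, by 0.41, and the deacetylase Sirt7 by 0.67 on the log2 scale (limma adjusted p = 0.015 and 0.0319).

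RNA polymerase III was uneven. Of its 10 Polr3 genes 5 fell, 5 did not pass and none rose, with a median of -0.52. The steepest falls of all 56 members were in this family. Polr3g had 226, 272 and 289 in -77-/- libraries, against 687, 804 and 972 in wild type (log2 fold change -1.63, SE 0.21, limma adjusted p = 3.2e-05). Polr3d had 245, 211 and 308 in -77-/- libraries, against 646, 685 and 993 in wild type (log2 fold change -1.59, SE 0.24, limma adjusted p = 1.0e-04). Neither gene overlapped between genotypes. Polr3g and Polr3d stood at 32.0% and 32.9% of wild type, and each kept its call in all 16 alternatives. Their roles differ: Polr3g belongs to a trimer used in initiation, and Polr3d pairs with Polr3e in termination and restarting.

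**Figure D3:**
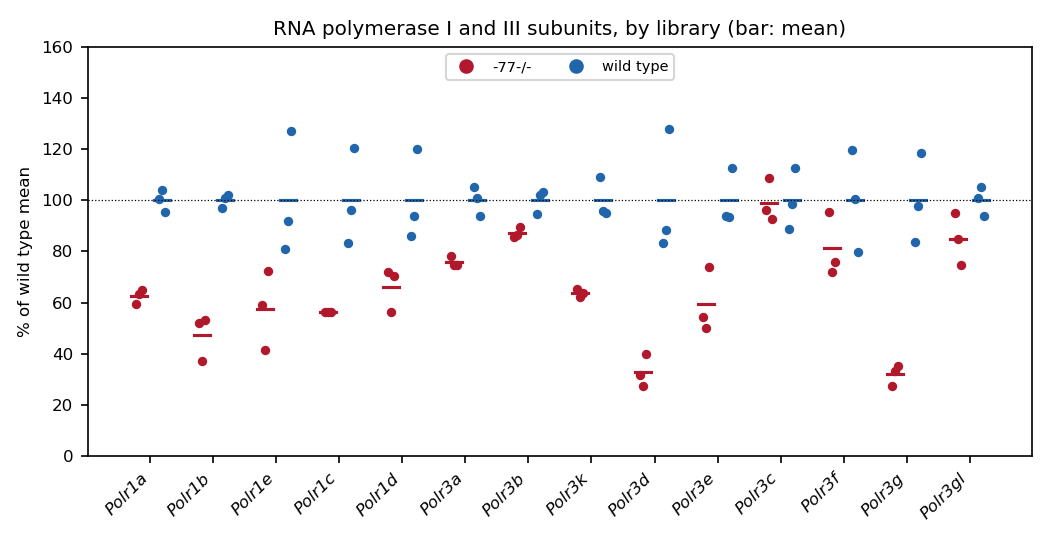
Each library's normalized reads as a percentage of the wild type mean of that gene, for 5 Polr1 and 9 of 10 Polr3 genes. Points of -77-/- are in red on the left, those of wild type in blue on the right, and the mean is a bar. Polr3g and Polr3d stand at 32.0% and 32.9% in -77-/-, while Polr3c averages 99.2%.

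The catalytic core of the same enzyme did not pass. Polr3a, the largest subunit, had 501, 479 and 480 in -77-/- libraries, against 675, 647 and 601 in wild type. The groups did not overlap, but the difference missed the threshold (log2 fold change -0.39, SE 0.18, limma adjusted p = 0.111). Polr3b, the other catalytic subunit, had 1119, 1132 and 1172 in -77-/- libraries, against 1237, 1337 and 1349 in wild type, also without overlap and without a call (log2 fold change -0.20, SE 0.13, limma adjusted p = 0.286). Polr3c, which binds Polr3g in the initiation trimer, overlapped fully, at 973, 1101 and 937 in -77-/- libraries and 899, 996 and 1142 in wild type (log2 fold change -0.01, SE 0.15, limma adjusted p = 0.972). The third trimer subunit, Polr3f, had a log2 fold change of -0.29 (limma adjusted p = 0.226). Polr3k, which helps the enzyme cut its own transcript, and Polr3e fell by 0.65 and 0.76 in log2 units. For Polr3e the call was lost with limma without trend and robust steps (adjusted p = 0.0552, with a lowest of 0.0033 over the alternatives).

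Polr3g has a paralogue, Polr3gl, and polymerase III holds one or the other; Polr3g is known for its high level in stem cells. Polr3gl had 260, 232 and 204 in -77-/- libraries, against 276, 288 and 256 in wild type, which overlap (log2 fold change -0.24, SE 0.26, limma adjusted p = 0.510). Per length, on the scale of normalized reads per kilobase of annotated exon, Polr3g had a level of 66.7 ± 8.37 in -77-/- and 209 ± 36.4 in wild type. On the same scale Polr3gl had a level of 145 ± 17.6 in -77-/- and 171 ± 10.1 in wild type. Polr3g therefore made up 26.0%, 32.2% and 36.5% of the pair in -77-/- replicates 1 to 3, against 50.3%, 53.1% and 60.6% in wild type. The groups were separate, with means of 31.6% ± 5.28 in -77-/- and 54.6% ± 5.35 in wild type (exact permutation test, two-sided, p = 0.1, the smallest that 3 against 3 can give). Exon lengths of 3936 and 1597 bases come from the GRCm38 annotation rather than the authors' own, which moves the share but not its order between libraries.

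The windows around the annotated starts of this pair are shown because Polr3g passed the test and Polr3gl did not, while the exact test of their share could not go below p = 0.1 with these libraries. They come from RefSeq (GRCm38.p6), run from 250 bases before to 50 bases after the start, and are written 5′ to 3′ with any CACGTG in capitals. The Polr3g window is chr13:81710964-81711263 and the Polr3gl window chr3:96594132-96594431, both on the minus strand.
Polr3g: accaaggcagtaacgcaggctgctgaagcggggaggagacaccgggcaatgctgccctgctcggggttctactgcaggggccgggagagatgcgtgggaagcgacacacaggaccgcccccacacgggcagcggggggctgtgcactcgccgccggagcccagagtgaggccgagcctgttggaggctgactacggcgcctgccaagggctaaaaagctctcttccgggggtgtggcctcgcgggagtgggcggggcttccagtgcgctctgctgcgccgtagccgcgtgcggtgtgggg
Polr3gl: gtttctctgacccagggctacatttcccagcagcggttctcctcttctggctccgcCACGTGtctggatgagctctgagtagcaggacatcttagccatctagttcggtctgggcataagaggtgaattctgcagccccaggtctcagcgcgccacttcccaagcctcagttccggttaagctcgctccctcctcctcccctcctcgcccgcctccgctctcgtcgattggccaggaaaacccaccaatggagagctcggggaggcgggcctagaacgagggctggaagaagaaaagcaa
The Polr3gl window holds 1 match, 194 bases before the start.

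Of 18 polymerase III partner genes, 5 were lower (27.8%, against 15.2% of all genes tested) and none higher, with a median of -0.25. Crcp, a subunit of the enzyme's stalk, had a log2 fold change of -0.68, and the initiation factor subunits Brf1 and Bdp1 had -0.63 and -0.59. Snapc4 had the largest fall, to 340 ± 52.4 in -77-/- against 552 ± 85.9 in wild type (log2 fold change -0.70, SE 0.22, limma adjusted p = 0.0255). The repressor Maf1 had -0.48 and did not pass (limma adjusted p = 0.0703). Subunits shared by all 3 polymerases were lower in 3 of 5 cases, Polr2l by 1.07, Polr2e by 0.79 and Polr2h by 0.78 on the log2 scale. Subunits of RNA polymerase II alone were lower in 4 of 7 cases with a median of -0.61, Polr2j falling most with -0.97, while the largest of them, Polr2a, had 0.17 and did not pass (limma adjusted p = 0.237).

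The exosome, a barrel of 6 ring proteins with a cap and attached nucleases, fell in 7 of 9 Exosc genes, with a family median of -0.69. Of the cap proteins, Exosc2 had 962, 753 and 980 in -77-/- libraries, against 1542, 1775 and 1791 in wild type (log2 fold change -0.93, SE 0.15, limma adjusted p = 2.2e-04), without overlap. The other cap genes, Exosc3 and Exosc1, showed log2 fold changes of -0.81 and -0.69, and Exosc1 lost its call without -77-/- replicate 2 or wild type replicate 1 or 3 (log2 fold change -0.55, -0.71 and -0.54, limma adjusted p = 0.116, 0.0614 and 0.0785). Of the ring genes, Exosc7, Exosc9 and Exosc8 fell by 0.77, 0.74 and 0.50 in log2 units. Exosc1, Exosc8 and Exosc9 lost their calls with limma without trend and robust steps (adjusted p = 0.0845, 0.0624 and 0.0544, with lowest values of 0.0217, 0.0042 and 1.9e-04 over the alternatives). Exosc8 lost it also without -77-/- replicate 3 (log2 fold change -0.42, limma adjusted p = 0.0572). Exosc9 shares 510 exonic bases with the cyclin gene Ccna2 on the opposite strand, which had a log2 fold change of -0.71, and the strand setting of the counting is not given in the sources used here. Opposite-strand partners of other members moved in both directions. Beside members that fell, Gm15522 (Nop14) had a log2 fold change of -1.83, Gm13427 (Exosc2) 0.66, Ranbp9 (Nol7) 0.58 and Ilk (Rrp8) 0.52. Beside members that did not pass, Serhl (Rrp7a) had 0.79, Oplah (Exosc4) 0.99, Tmem91 (Exosc5) 0.84 and 4931428F04Rik (Nol3) 1.33. The last shares 1531 exonic bases with Nol3. What such overlaps add to the values of these members was not tested.

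Exosc10, the nuclear nuclease of the complex, had 1338, 1006 and 1305 in -77-/- libraries, against 1745, 1926 and 1959 in wild type, with the groups apart (log2 fold change -0.63, SE 0.14, limma adjusted p = 0.0031). For Exosc10, too, the call was lost with limma without trend and robust steps (adjusted p = 0.0568, with a lowest of 8.1e-04 over the alternatives). The ring gene Exosc4 had all -77-/- libraries below wild type but did not pass (log2 fold change -0.55, SE 0.25, limma adjusted p = 0.11). Exosc5 overlapped, at 365, 204 and 375 in -77-/- libraries and 309, 298 and 474 in wild type, with -77-/- replicate 2 lowest (log2 fold change -0.21, SE 0.29, limma adjusted p = 0.606). Among 15 exosome partner genes 6 were lower and none higher, with a median of -0.43. The nuclease Dis3 and the helicase Skiv2l2 showed log2 fold changes of -0.74 and -0.65. Mphosph6, a nuclear exosome cofactor, fell most, to 312 ± 19.5 in -77-/- against 705 ± 28.2 in wild type (log2 fold change -1.17, SE 0.19, limma adjusted p = 2.7e-04).

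**Figure D4:**
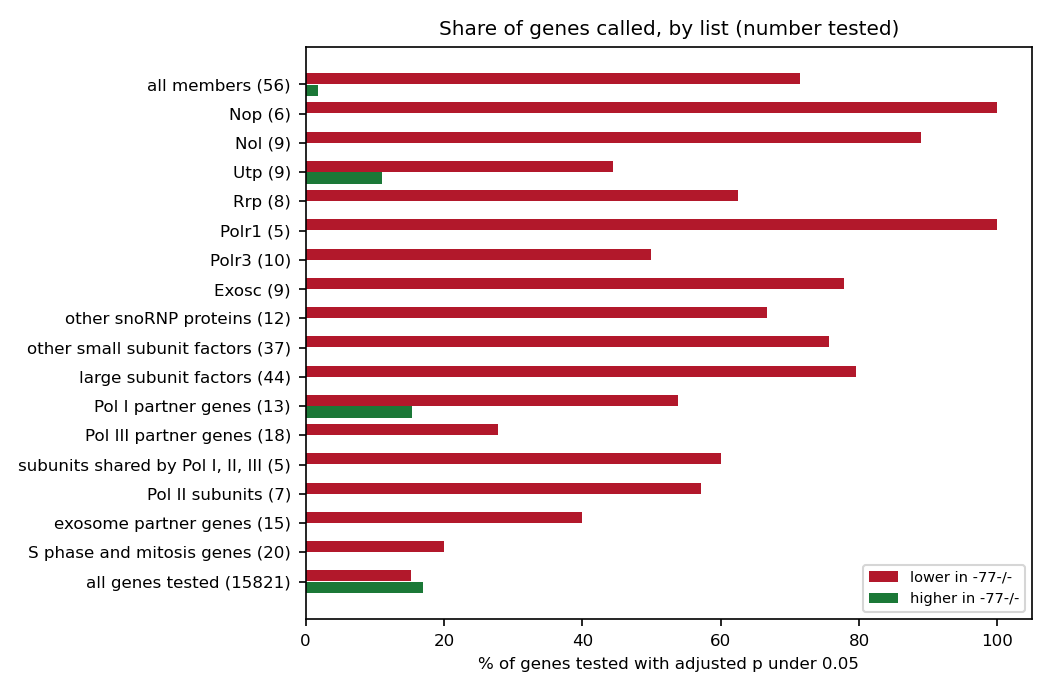
The percentage of genes tested in each list (number in brackets) that were lower (red) or higher (green) in -77-/- at an adjusted p under 0.05. The bars of the 56 members reach 71.4% lower and 1.79% higher, those of S phase and mitosis genes 20.0% lower, and those of all genes tested 15.2% and 16.9%.

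Proliferation genes, which often vary with ribosome production, were counted for comparison. Of 20 S phase and mitosis genes 4 were lower (20.0%, near the 15.2% of all genes tested), none was higher (against 16.9%), and the median was -0.14. In 10 of the 20 every -77-/- library lay below every wild type library, against 21.4% of all genes tested. Mki67, Ccna2, Ccnb1 and Rrm1 were those that fell. Myc, whose protein activates many genes of ribosome production, had 463, 670 and 741 in -77-/- libraries, against 902, 1004 and 1226 in wild type, without overlap (log2 fold change -0.76, SE 0.20, limma adjusted p = 0.0088). With limma without trend and robust steps the call of Myc ended (adjusted p = 0.0866, with a lowest of 0.0046 over the alternatives). Mycn ran from 6.10 to 51.2 in -77-/- libraries and from 0 to 38.7 in wild type, and did not pass (limma adjusted p = 0.477).

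Myc with its partner Max binds the E-box CACGTG, which reads the same on both strands. This motif was searched in RefSeq promoter windows of 300 bases, of which 45 of the 56 members had at least 1. It was present for 10 of these 45 genes (22.2%), against 8.09% of 27025 genes with a window. Those 27025 genes were not limited to genes tested here, whereas all members passed the filter on low values. Among members that were lower in -77-/- the motif was present for 4 of 34 (11.8%), and among members that were higher or did not pass for 6 of 11 (54.5%). A match says only that these letters occur in the window, and these shares were not tested. The 10 matches are shown with up to 12 bases on each side, on the strand of the gene in GRCm38.p6, with the motif in capitals. The first 4 belong to genes that fell, the fifth to the gene that rose and the others to genes that did not pass.
Nop2 at chr6:125131811-125131840, plus strand: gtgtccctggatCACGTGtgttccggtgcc
Nol11 at chr11:107189407-107189436, minus strand: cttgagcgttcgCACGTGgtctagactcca
Polr3e at chr7:120917771-120917800, plus strand: ccccgctcccccCACGTGtccggcggagtt
Utp20 at chr10:88826765-88826789, minus strand: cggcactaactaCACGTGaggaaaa
Utp14b at chr1:78658365-78658394, plus strand: cgcgggcgcgggCACGTGggtggggtcgtc
Utp18 at chr11:93885769-93885798, minus strand: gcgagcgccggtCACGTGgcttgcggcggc
Exosc5 at chr7:25659097-25659126, plus strand: taaacgctgagcCACGTGctagggccaact
Polr3c at chr3:96727659-96727688, minus strand: gcccgcaagggtCACGTGagtccgcccggc
Polr3gl at chr3:96594358-96594387, minus strand: ttctggctccgcCACGTGtctggatgagct
Rrp7a at chr15:83122992-83123021, minus strand: gtgcctgtgcacCACGTGtcctggaactgg
The matches of Nop2, Nol11, Exosc5, Utp14b and Utp18 began 60, 43, 44, 63 and 20 bases before the start, and those of Polr3e and Utp20 began 5 and 37 bases after it. Those of Polr3c, Rrp7a and Polr3gl lay farther off, beginning 237, 208 and 194 bases before the start.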

How the data were processed

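RNA was sequenced as single reads of 50 nt from NuGEN Ovation libraries made from 10 ng of total RNA. The build mm9 and the tools RSEM 1.2.31, STAR 2.5, Bowtie and DESeq2 are named in the submitters' processing notes; annotation and strand setting are not given in the sources used here. Deposited signal columns are gene counts that the authors divided by 1 size factor per library: 100% of values were whole multiples of 1 step (tolerance 0.01 of a read), which gave back whole reads. The authors' log2 fold changes and adjusted p-values were only counted. Of 19444 rows, 8 with cells moved sideways were left out.

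The test was limma 3.58.1 (R 4.3.3; trend and robust) on log2(value + 1), over 15821 genes with a mean of at least 10 in the higher genotype, adjusted over all of them at 0.05. Fold changes are -77-/- over wild type on that scale, which shrinks low genes. Alternatives were pseudocounts of 0.1 and 5, no filter, a mean of 50, other scalings, edgeR 4.0.16, DESeq2 1.42.0, limma-voom, plain limma, and leaving out each library. The test was also run on simulated libraries in which few genes changed, equally up and down. That run does not measure error rates with as many changes as in these data. Values in every library are given for members past a log2 fold change of 1, the extremes and the value nearest 0 of each family, and some fixed subunits. Members, lists and naming rule were chosen with earlier results of these data known. From the exosome list Mpp6 was dropped after values were seen, since the symbol names a membrane scaffold gene. Polr1c, and partner genes other than the largest rise and fall of a list, were named after their values were seen. Replicate numbers follow record order and pair nothing. The counts cover all 56 members, of which 1 is not reported here by name.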

Additional observations from a re-analysis of the deposited data

How the results depend on the processing

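The number of members that were lower was 40 in the main test and in every alternative of pseudocount, filter, scaling, edgeR, DESeq2 and limma-voom, 34 to 40 when 1 library was left out, and 24 with limma without a trend or robust step, where the number of all genes lower was 1430 against 2410; the cause was not tested. Of all genes tested, 12.2% to 14.8% were lower when 1 library was left out, and 9.04% without a trend or robust step. In the remaining alternatives 12.3% to 21.0% were lower. The single higher member was lost (0) with no filter and without a trend or robust step, and the count ran from 0 to 1 when 1 library was left out. The median log2 fold change of the members lay between -0.72 and -0.58 over the 16 alternatives, the value nearest 0 coming from scaling by total reads, which placed the median of all genes at 0.18. Of the 41 members called, 24 kept their call in every alternative. Signs changed in members and in Mycn only where no call was made. Polr3c had 0.0775 with scaling by total reads and -0.0908 to 0.0817 when 1 library was left out. Leaving out 1 library gave -0.37 to 0.0707 for Exosc5, -1.22 to 0.67 for Nol3, -0.27 to 0.14 for Rrp36, -0.0508 to 0.12 for Utp3 and -0.12 to 2.53 for Mycn. No paired analysis was possible because the labels carry no replicate numbers. With 3 libraries a genotype, differences under the spread of these libraries cannot be resolved, and counts without molecular identifiers are not independent molecules.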

Other observations

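Genes that host small nucleolar RNAs in their introns were taken as Gas5 and every symbol starting with Snhg, a list chosen after its values were seen. Of 8 tested, 6 were lower in -77-/-, 2 did not pass and none was higher, where 15.2% of all genes tested were lower. Gas5 fell to 6877 ± 984 normalized reads in -77-/-, against 18493 ± 2117 in wild type (log2 fold change -1.43, SE 0.12, limma adjusted p = 2.3e-07). Snhg1 fell to 3854 ± 296 in -77-/-, against 7036 ± 151 in wild type, and Snhg3, Snhg4, Snhg12 and Snhg5 showed log2 fold changes of -1.53, -1.22, -1.17 and -1.12. Snhg7 and Snhg11 had log2 fold changes of -0.15 and 1.19 and did not pass (limma adjusted p = 0.747 and 0.0594). For Snhg11 every -77-/- library lay above every wild type library, and for Snhg7 the groups overlapped.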
